A study of Sus scrofa with 6 samples.

Results

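The proneural basic helix-loop-helix (bHLH) factors NEUROG1, NEUROG2, NEUROD1, NEUROD4, ATOH1, NHLH1 and PTF1A were followed in single-cell ATAC-seq data of pig embryos. The 7 genes were chosen by name out of 25842 genes of the RefSeq annotation of Sscrofa11.1, with earlier results of these data known. Shares over all features that stand beside their counts are therefore a description. A locus was taken as the gene body plus 20 kb on each side. The loci held 52 of the 294825 regions obtained by merging the peaks of all libraries. There were 6 libraries, 1 for each combination of stage and breed. The tissue was somite at embryonic day 18 (E18) and at day 21 (E21), and myotome at day 28 (E28), of Tibetan pigs (ZZ) and of Duroc x Tibetan pigs (DZ). The labels name no treatment or genetic change, and each library pooled 5 embryos of 1 sow, so single embryos could not be compared. Since myotome was sampled at E28 alone, an effect of stage cannot be told apart from one of tissue. A library of a stage and breed had no replicate. The p-values for stages and for breeds come from a common fit with a term for each. Both rest on how far the difference between ZZ and DZ varied between stages.

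Proneural factors are transcription factors that bind E-box DNA as dimers with E proteins and commit neural progenitors to a neuronal fate. A cell that raises its proneural factors presents the Notch ligand DLL1, and Notch receptors on its neighbours induce HES repressors that keep those neighbours as progenitors, while ID proteins block the dimers by capturing E proteins. NEUROG1 and NEUROG2 act early in sensory and spinal progenitors, ATOH1 and PTF1A specify separate dorsal spinal interneurons, and NEUROD1, NEUROD4 and NHLH1 follow in cells that are leaving the cycle. The neural tube and the dorsal root ganglia lie against the somites, whereas muscle formation depends on another bHLH family that includes MYOD1 and MYOG.

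The deposited counts are Tn5 cut sites inside peaks, with a separate peak call for every library. Of the barcodes, 58809 of 64439 held 2000 to 30000 counts, were kept and are called cells. A library held 9286 to 11243 kept cells and between 89816504 and 133037579 counts, with medians of 8084.5 to 11452 counts per cell. Values are given as CPM, that is counts divided by the total of kept counts of the library on the usual per-million scale. Counts exist only inside called peaks, and the called sequence shrank from 191.151 Mb in E18 ZZ to 102.171 Mb in E28 ZZ. Of the kept barcode sequences, 1921 occurred in more than 1 library, with 113 to 157 shared between any pair. Windows of all 13 myogenic marker genes passed the filter on low counts in the cell comparison described further on, with a summed level of 481 to 638 CPM per library in the larger class of cells.

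Sequence is shown for 4 of the 19 regions in which accessibility followed the other proneural loci across cells: the one with the largest fold change, the 2 promoters with the largest, and the promoter with the smallest, that of ATOH1. Each line gives the central 200 bp of the sequence that was inside a peak of every library, written 5′ to 3′ on the strand of the gene, in Sscrofa11.1 coordinates and with the sequence from RefSeq. Capitals mark the E-box CANNTG, which reads the same on both strands.
NEUROD4_r2, chr5:20038120-20038319, plus strand: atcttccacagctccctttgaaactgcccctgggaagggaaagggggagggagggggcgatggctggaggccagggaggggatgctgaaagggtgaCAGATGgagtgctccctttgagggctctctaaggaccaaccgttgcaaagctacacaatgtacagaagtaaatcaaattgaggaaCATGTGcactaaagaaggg
NEUROD1_r3, chr15:87179944-87180143, minus strand: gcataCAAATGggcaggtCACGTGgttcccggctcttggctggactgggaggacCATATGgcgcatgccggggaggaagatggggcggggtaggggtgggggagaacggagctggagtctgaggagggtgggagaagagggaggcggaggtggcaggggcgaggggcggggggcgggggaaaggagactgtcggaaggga
NHLH1_r5, chr4:90117219-90117418, minus strand: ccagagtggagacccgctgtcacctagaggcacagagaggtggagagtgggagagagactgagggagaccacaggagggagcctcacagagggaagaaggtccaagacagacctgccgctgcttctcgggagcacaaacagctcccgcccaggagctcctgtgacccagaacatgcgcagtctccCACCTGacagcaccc
ATOH1_r5, chr8:125770420-125770619, minus strand: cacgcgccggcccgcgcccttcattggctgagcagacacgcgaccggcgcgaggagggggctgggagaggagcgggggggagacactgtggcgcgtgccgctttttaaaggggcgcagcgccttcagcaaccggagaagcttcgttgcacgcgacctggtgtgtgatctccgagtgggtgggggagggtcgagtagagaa
NEUROD4_r2, an intergenic region at -8483 bp from the NEUROD4 start, held 2 E-boxes in its window, 1 of them CAGATG. The NEUROD1 promoter window held 3 E-boxes of other types and the NHLH1_r5 window, whose midpoint lies at -1250 bp from the NHLH1 start, held 1, whereas no E-box stood in the ATOH1 promoter window. Such a window could be cut for 24 of the 26 proneural regions with a peak in all 6 libraries and for 69423 of 78533 such regions genome-wide. An E-box of any type stood in 11 of the 24 windows (45.8%) and in 65.7% of all windows. CAGCTG, which reads the same on both strands, stood in 3 of the 24 (12.5%) and in 20.1% of all windows, and CAGATG on either strand stood in 2 (8.33%) and in 18.2%. CAGGTG on either strand stood in 5 (20.8%) and in 16.04% of all windows. The windows at the proneural loci had a median GC content of 62.0%, against 54.0% for all windows. The search covered 200 bp of each region and says nothing of the rest of it.

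**Figure D1:**
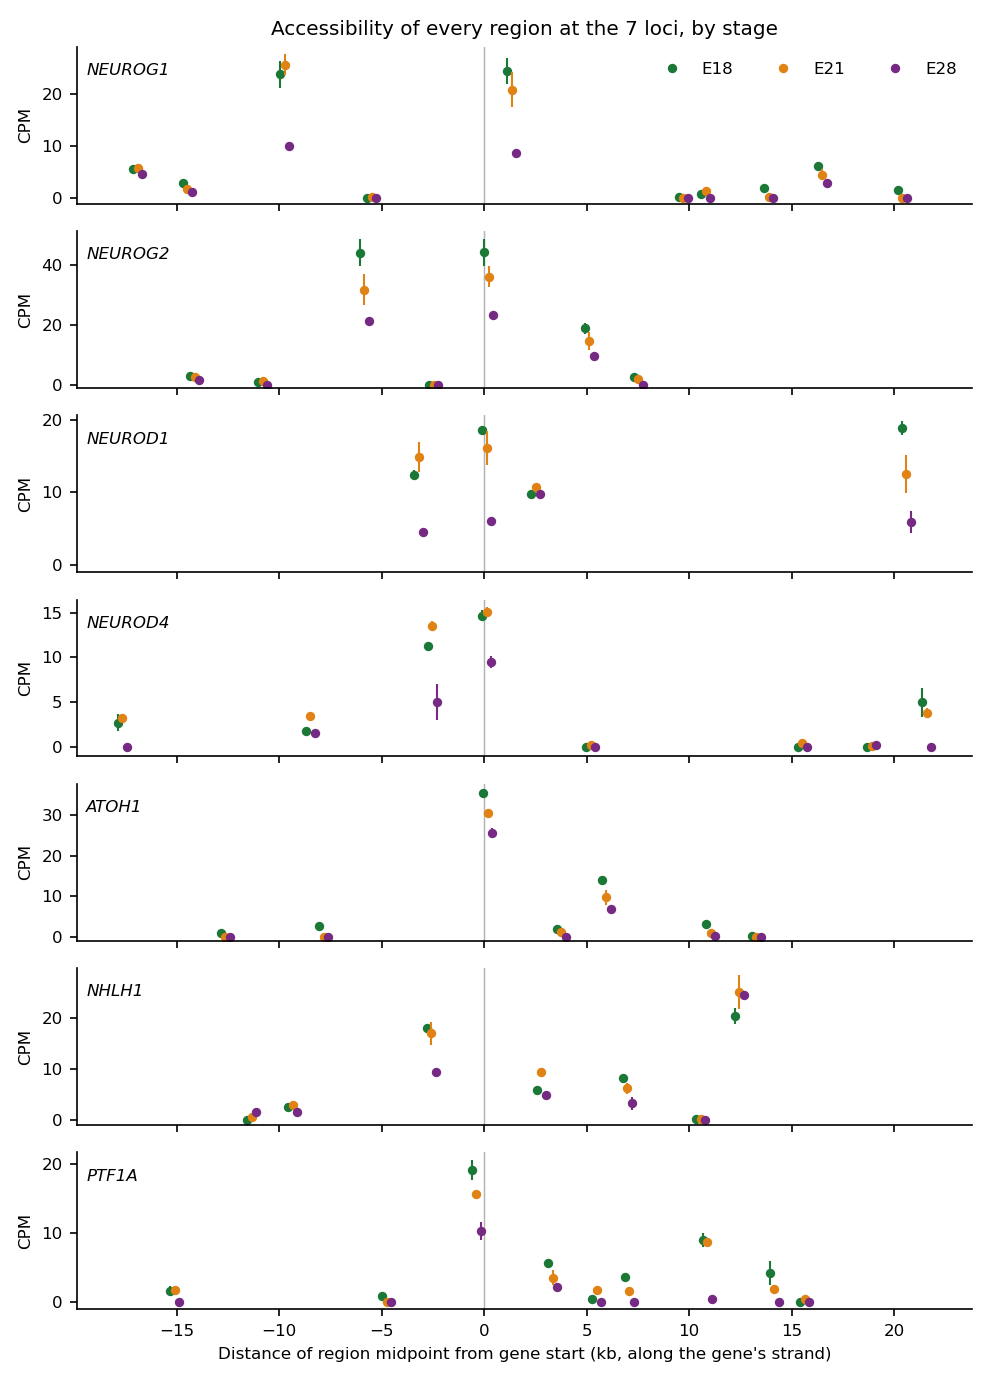
Mean CPM of the ZZ and DZ library of each stage (points; bars span the 2 libraries) for all 52 regions, by distance in kb of the region midpoint from the start of its gene along the gene's strand. Most E28 points lie under those of E18 and E21, whereas the NHLH1 region at 12449 bp does not fall at E28.

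The regions at each locus were numbered by their order on the chromosome. NEUROG1 (chr2:137763091-137766787, minus strand) had 10 regions, NEUROG2 (chr8:110200681-110206081, plus strand) 7, NEUROD1 (chr15:87175629-87179953, minus strand) 4, NEUROD4 (chr5:20046864-20057380, plus strand) 8, ATOH1 (chr8:125768232-125770619, minus strand) 7, NHLH1 (chr4:90107243-90116068, minus strand) 7 and PTF1A (chr10:51817697-51820147, minus strand) 9. Of the 52 regions, 7 overlapped the 500 bp on either side of a gene start and are called promoters, 6 lay in gene bodies, 18 upstream and 21 downstream. The NHLH1 promoter region reached the 500 bp limit from the upstream side and did not cover the gene start. Neighbouring genes entered 5 loci, among them CERKL at NEUROD1, NCSTN at NHLH1 and C10H10orf67 at PTF1A, so peaks there may belong to those genes.

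The proneural loci held fewer peaks at E28, as did the whole libraries. A peak was present in all 6 libraries at 26 of the 52 regions. A further 9 regions had peaks in both E18 and both E21 libraries and in no E28 library, and 6 had peaks in both E18 libraries alone. The other 11 had mixed patterns, 4 of them with a peak in 1 E21 library alone. The loci held 48 peaks in E18 ZZ, 45 in E18 DZ, 48 in each E21 library and 34 in each E28 library. All peaks numbered 217138 in E18 ZZ and 199846 in E18 DZ, against 131975 in E28 ZZ and 137769 in E28 DZ, so that the loci lost a smaller part of their peaks than the libraries as a whole. The covered length fell over the stages, from 76177 bp in E18 ZZ and 72169 bp in E18 DZ to 67268 bp in E21 ZZ and 63712 bp in E21 DZ, and then to 33876 bp in E28 ZZ and 35976 bp in E28 DZ. Over the whole libraries it fell from 191.151 Mb in E18 ZZ and 167.836 Mb in E18 DZ to 102.171 Mb in E28 ZZ and 108.377 Mb in E28 DZ, so that the loci lost a larger part of their covered length than the libraries did. A region was open in an E28 library and in no E18 library in 2 cases. These were NEUROD4_r7 and NHLH1_r7, the latter overlapping coding sequence of NCSTN.

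Together the 7 loci held 407 CPM in E18 ZZ, 462 in E18 DZ, 419 in E21 ZZ, 346 in E21 DZ, 226 in E28 ZZ and 209 in E28 DZ. Both E28 libraries lay below all others. In sums over a tissue, fewer cells with an open locus and less signal per cell cannot be told apart.

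**Figure D2:**
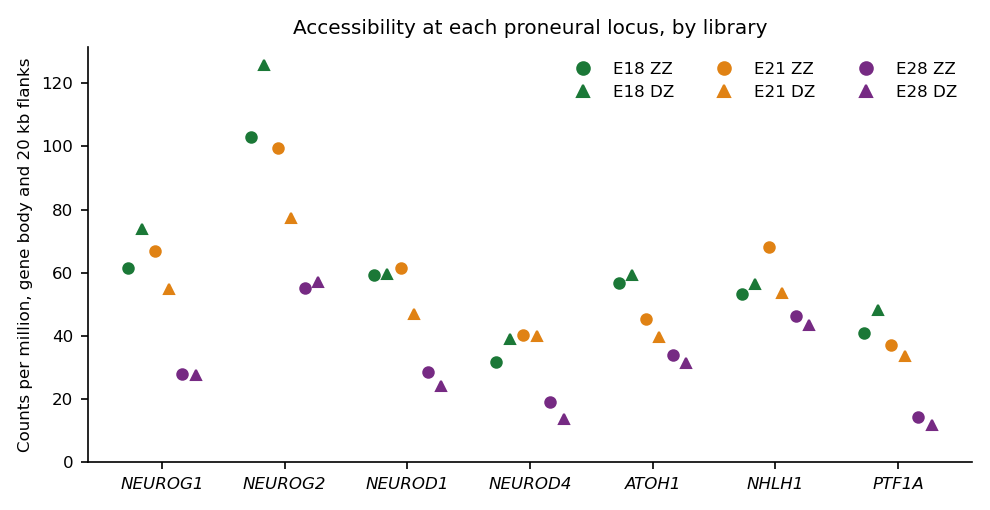
CPM summed over all peaks of each locus (gene body and 20 kb on each side), with 1 point per library, colours for stages and shapes for breeds. The E28 points of each locus lie below its E18 and E21 points. At NHLH1 the E28 ZZ library stood at 46.2 CPM and E18 ZZ at 53.4.

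The loci of the early-acting neurogenins fell at E28. For NEUROG2 the CPM was 103 in E18 ZZ, 126 in E18 DZ, 99.4 in E21 ZZ, 77.4 in E21 DZ, 55.3 in E28 ZZ and 57.0 in E28 DZ. The E28 libraries were lower than those of E18 (log2 fold change -1.03, SE 0.15, adjusted p = 0.00348) and of E21 (-0.68, SE 0.15, adjusted p = 0.0391), by edgeR's quasi-likelihood test with Benjamini-Hochberg adjustment over 24752 loci, which is the test of all locus and region values that follow. NEUROG1, its paralog, stood at 61.5 and 73.9 CPM in the E18 libraries (ZZ before DZ, here and below), 66.8 and 54.8 at E21, then 28.0 and 27.6 at E28. E28 was lower than E18 by a log2 fold change of -1.30 (SE 0.14, adjusted p = 0.00164) and lower than E21 by -1.16 (SE 0.14, adjusted p = 0.0111). Values per covered base take the length of called peaks in each library as an offset. On that scale E28 against E18 stood at 0.0073 for NEUROG1 (adjusted p = 0.969) and at -0.51 for NEUROG2 (adjusted p = 0.000609). The median of all loci was then 0.66.

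ATOH1, which specifies the most dorsal spinal interneurons, was the one locus of the 7 that edgeR called lower at E21. It stood at 56.8 and 59.3 CPM at E18, 45.4 and 39.6 at E21, then 33.9 and 31.3 at E28, so that the 3 stages did not overlap. The E21 value was lower than that of E18 (log2 fold change -0.44, SE 0.10, adjusted p = 0.0489). The E28 value was lower than that of E18 (-0.84, SE 0.10, adjusted p = 0.00211), whereas E28 against E21 did not pass (-0.41, SE 0.10, adjusted p = 0.0513). Per covered base the E21 value was 0.12 above that of E18 (adjusted p = 0.638), below the median of 0.24 for all loci. The covered length was 9133 and 8655 bp at E18, 6785 and 5367 bp at E21. On the same scale E28 against E18 stood at 0.14 (adjusted p = 0.465), below the median of 0.66 for all loci. PTF1A, which specifies inhibitory interneurons of the dorsal cord and also the exocrine pancreas, stood at 41.0 and 48.3 CPM at E18, 37.1 and 33.8 at E21, then 14.4 and 11.8 at E28. Its log2 fold change from E18 to E28, -1.79 (SE 0.15, adjusted p = 0.00107), was the most negative of the 7 by library size, but the direction turned per covered base (0.44, adjusted p = 0.0331).

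Among the factors of differentiating neurons, NEUROD1 stood at 59.3 and 59.7 CPM at E18, 61.6 and 46.8 at E21, then 28.5 and 24.1 at E28. It had a log2 fold change of -1.198 from E18 to E28 (SE 0.12, adjusted p = 0.00138). NEUROD4 stood at 31.8 and 39.1 CPM at E18, 40.2 and 39.9 at E21, then 19.2 and 13.8 at E28, with a log2 fold change of -1.12 (SE 0.19, adjusted p = 0.00527). Per covered base neither passed, with -0.05 for NEUROD1 (adjusted p = 0.788) and 0.03 for NEUROD4 (adjusted p = 0.899). The exception by library size was NHLH1, at 53.4 and 56.3 CPM at E18, 68.3 and 53.5 at E21, then 46.2 and 43.4 at E28. Its E28 libraries lay under the others, but the log2 fold change of -0.30 (SE 0.12) did not pass the threshold in edgeR's test (adjusted p = 0.0709). DESeq2 called all 7 loci in this comparison, NHLH1 among them.

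Thus by library size 6 of 7 loci were lower at E28 than at E18, against 24.2% of all loci tested. In the same way 5 of 7 were lower at E28 than at E21, against 8.19% of all loci. The 5 were PTF1A, NEUROD1, NEUROG1, NEUROD4 and NEUROG2. Without E21 ZZ none of the 7 passed in the latter comparison, and the counts of locus calls for the former stayed at 6 when any single library was left out. From E18 to E21, 1 of 7 passed, against 4.75% of all loci lower, and the ATOH1 call was lost without any 1 of the 4 libraries compared. No locus passed between breeds (0 of 7, against 0% of all loci). At an unadjusted p under 0.05 there were 0 of 7 in that comparison, and DESeq2 called 0. From E18 to E28 and from E21 to E28 DESeq2 called 7 of 7 loci, so the loci that edgeR did not call there depend on the test.

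Regions at the loci were then tested where all 6 libraries had a peak, which was the case for 26. By this test, scaled by library size, 19 fell from E18 to E28 and 0 rose, against 18.1% of 78533 regions called lower. Per covered base 8 fell and 2 rose, against 6.39% and 45.8% of all regions. By library size, as in the rest of this paragraph, the median log2 fold change of the 26 was -1.05, and that of all regions was -0.02. All 7 promoters fell, as did 12 of the 19 other regions. In 22 of the 26 both E28 libraries lay below both E18 libraries, as in 36.1% of all regions. The count of calls was 6 without E18 DZ and 11 without E18 ZZ.

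The promoter with the lowest fold change by library size was that of NEUROD1 (NEUROD1_r3, chr15:87178676-87180981, overlapping an exon of the gene). It held 18.3 and 18.8 CPM at E18, 18.5 and 13.7 at E21, then 5.87 and 6.23 at E28, a log2 fold change from E18 to E28 of -1.66 (SE 0.20, adjusted p = 0.00424). The NEUROG1 promoter region (NEUROG1_r6, chr2:137763233-137767678) overlaps the coding exon of the gene. It held 22.1 and 26.9 CPM at E18, 24.3 and 17.5 at E21, then 9.36 and 8.12 at E28 (-1.54, SE 0.20, adjusted p = 0.00459). At both promoters the E28 libraries were far below the range of the other 4.

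The NEUROG2 promoter region (NEUROG2_r5, chr8:110198799-110203004, with coding exon) held 39.9 and 49.0 CPM at E18, 39.7 and 32.7 at E21, then 23.7 and 23.2 at E28, a log2 fold change from E18 to E28 of -0.96 (SE 0.14, adjusted p = 0.00571). The ATOH1 promoter region (ATOH1_r5, chr8:125768481-125772396, with coding exon) had the smallest fall of the 7 promoters by library size. Per covered base it stood at -0.36, lower than the promoters of NHLH1 (-0.16), NEUROD4 (-0.13), NEUROG1 (-0.12) and PTF1A (0.016). By library size it held the values that follow. It held 35.3 and 36.0 CPM at E18, 30.9 and 30.3 at E21, then 26.9 and 24.6 at E28 (-0.51, SE 0.10, adjusted p = 0.0126). The E18 and E28 libraries still did not overlap.

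The NHLH1 promoter region (NHLH1_r5, chr4:90116541-90120783, intergenic) held 17.9 and 18.1 CPM at E18, 19.2 and 14.7 at E21, then 9.73 and 8.82 at E28, and fell by 1.004 on the log2 scale (SE 0.17, adjusted p = 0.00901). The PTF1A promoter region (PTF1A_r7, chr10:51818592-51822466, with coding exon) held 17.6 and 20.6 CPM at E18, 16.1 and 15.4 at E21, then 11.6 and 8.96 at E28 (-0.95, SE 0.19, adjusted p = 0.0128). The NEUROD4 promoter region (NEUROD4_r4, chr5:20046518-20047434, overlapping an exon) held 14.0 and 15.2 CPM at E18, 14.6 and 15.6 at E21, then 10.1 and 8.88 at E28 (-0.67, SE 0.18, adjusted p = 0.0315). NHLH1 therefore had a promoter that fell in a locus that did not pass edgeR's test, although DESeq2 called that locus.

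The NHLH1 locus also holds NHLH1_r1 (chr4:90102311-90104927), an intergenic region 12449 bp from the gene start on the downstream side. NHLH1_r1 had 18.8 and 21.9 CPM at E18, 28.2 and 21.7 at E21, then 23.9 and 24.8 at E28. With a log2 fold change of 0.22 (SE 0.16, adjusted p = 0.33) it was the only one of the 26 regions with a positive value from E18 to E28 by library size. Its E28 libraries lay above both E18 libraries and inside the range of E21. Per covered base other regions were positive as well, among them NHLH1_r4 (1.62) and NEUROD1_r4 (0.74).

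Flanking regions covered the widest range. PTF1A_r3 (chr10:51806972-51811561), 10881 bp downstream of the PTF1A start and overlapping coding sequence of C10H10orf67, had the lowest fold change of all 26 by library size. It held 8.04 and 10.1 CPM at E18, 8.96 and 8.50 at E21, then 0.156 and 0.791 at E28, and fell by 4.44 on the log2 scale (SE 0.62, adjusted p = 0.00547). Its covered length was 3707 bp in E18 ZZ, 3529 bp in E18 DZ, 61 bp in E28 ZZ and 221 bp in E28 DZ. Per covered base its direction turned (0.32, adjusted p = 0.349), with a median of 0.43 for all regions. NEUROG1_r8 (chr2:137773200-137779844) is intergenic and lies at -9735 bp from the NEUROG1 start. It held 21.2 and 26.5 CPM at E18, 27.7 and 23.6 at E21, then 9.25 and 10.8 at E28 (-1.29, SE 0.17, adjusted p = 0.00489). Per covered base its value was -0.05 (adjusted p = 0.825).

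NEUROD1_r1 (chr15:87158596-87160129), which overlaps coding sequence of CERKL and lies 20591 bp downstream of the NEUROD1 start, had the smallest adjusted p of the 26. It held 19.8 and 17.9 CPM at E18, 15.1 and 9.94 at E21, then 7.42 and 4.38 at E28 (-1.77, SE 0.21, adjusted p = 0.0038). By contrast NEUROD1_r2 (chr15:87176945-87177944) overlaps the coding exon of NEUROD1 itself. It held 9.60 and 9.94 CPM at E18, 11.03 and 10.4 at E21, then 10.3 and 9.33 at E28. Its log2 fold change was -0.04 (SE 0.19, adjusted p = 0.89), and its E18 and E28 libraries overlapped.

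Between E21 and E28, 7 of the 26 regions were lower and 0 higher, against 4.61% of all regions called lower. The regions were NEUROD1_r4, NEUROG1_r8, PTF1A_r3, NEUROD1_r1 and the promoters of NEUROD1, NEUROG1 and NHLH1. NEUROD1_r4 (chr15:87181551-87184735), intergenic and at -3190 bp from the NEUROD1 start, held 16.9 and 12.8 CPM at E21, then 4.84 and 4.16 at E28 (-1.69, SE 0.22, adjusted p = 0.0251), and 11.6 and 13.0 at E18. The NEUROG1_r8 log2 fold change was -1.34 (SE 0.17, adjusted p = 0.0251). For PTF1A_r3 it was -4.35 (SE 0.62, adjusted p = 0.0265). The values for the NEUROD1 and NEUROG1 promoters were -1.38 (SE 0.20, adjusted p = 0.0277) and -1.23 (SE 0.20, adjusted p = 0.0305). Per covered base the direction turned for NEUROD1_r4 (0.52), PTF1A_r3 (0.41) and the promoters of NEUROG1 (0.082) and NEUROD1 (0.036). NEUROD1_r1 (-0.73), the NHLH1 promoter (-0.33) and NEUROG1_r8 (-0.14) stayed negative on that scale, where the median of all regions was 0.33. All calls that follow are again by library size. Leaving out E21 ZZ or E21 DZ left 0 calls, and leaving out E28 ZZ gave 13. DESeq2 called 14, and with regions that had a peak of any library, rather than of each, edgeR called 0.

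From E18 to E21 no region passed edgeR's threshold (0 of 26, against 6.59% of all regions in either direction). At an unadjusted p under 0.05 there were 6 of 26, against 27.6% of all regions, and DESeq2 called 2. The lowest p values belonged to NEUROD1_r1 (log2 fold change -0.69, SE 0.20, adjusted p = 0.0939) and to NEUROG2_r3 (-0.54, SE 0.18, adjusted p = 0.125), an intergenic region at -5842 bp from the NEUROG2 start. The count rose to 2 without E28 ZZ and also without E28 DZ, libraries that enter this comparison by the common spread.

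The breeds did not differ at any tested region by edgeR (0 of 26, against 0% of all regions). At an unadjusted p under 0.05 there was 1 of 26, against 4.94% of all regions, and DESeq2 called 0. That region was NEUROD1_r1, lower in DZ at E21 and E28 and also at E18 (log2 fold change -0.45, SE 0.16, adjusted p = 0.846). The next was NHLH1_r3, in the gene body of NHLH1 (-0.52, SE 0.25, adjusted p = 0.846). Fold changes between breeds ranged from -0.52 to 0.71 over the 26 regions, and from -0.18 for NEUROD1 to 0.02 for NEUROG2 over the 7 loci. With SEs of 0.08 to 0.15 at the loci, small differences between breeds could not be detected.

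Per kb of covered sequence the NEUROD4 promoter had the highest level in every library, from 14.5 CPM per kb in E28 DZ to 18.1 in E21 DZ. The order of promoters on this scale depends on the called length. In E18 ZZ that length was 917 bp for NEUROD4 and 4446 bp for NEUROG1. In CPM the NEUROD4 promoter was the lowest of the promoters at E18, at 14.0 and 15.2. NEUROG2 stood at 9.83 and 11.6 CPM per kb at E18 and 7.81 and 7.195 at E28, and ATOH1 at 9.66 and 9.62 at E18 and 8.83 and 6.76 at E28. The NEUROD1 promoter, the one with the lowest fold change in CPM, held 8.19 and 13.4 CPM per kb at E18 and 8.07 and 8.29 at E28. Its called length at E18 was 2228 bp in ZZ and 1407 bp in DZ. NEUROG1 stood at 4.96 and 6.11 at E18 and 5.45 and 5.02 at E28, so that its stages overlapped on this scale.

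The falls at E28 ran together with the covered length. When the length of called peaks in each library was entered as an offset, so that the values became accessibility per covered base, the median log2 fold change of all regions became 0.43 and that of all loci 0.66. Under this scaling 8 of the 26 regions fell from E18 to E28 (against 6.39% of all regions) and 2 rose (against 45.8%), and 24 of the 26 lay below the median of all regions. The 8 were NEUROG2_r3, NEUROG2_r5, NEUROG2_r6, NEUROG1_r2, NEUROG1_r9, NEUROD1_r1, NEUROD4_r3 and ATOH1_r5. The promoters of NEUROG2 (-0.56, adjusted p = 0.00106) and ATOH1 (-0.36, adjusted p = 0.0271) remained lower, whereas that of NEUROG1 was at -0.12 (adjusted p = 0.548). The 2 higher regions were NHLH1_r4, overlapping an exon of NHLH1 (1.62, adjusted p = 8.7e-06), and NEUROD1_r4 (0.74, adjusted p = 0.0111), which lies above the median shift by 0.31. Of the loci, NEUROG2 alone stayed lower (-0.51, adjusted p = 0.000609), against 0.508% of all loci, and those of PTF1A (0.44, adjusted p = 0.0331) and NHLH1 (0.50, adjusted p = 0.0044) passed as higher, against 80.3% of all loci, although both lay below the shift of all loci. From E21 to E28 no locus was lower per covered base (0 of 7, against 0.245% of all loci, all 5 calls being lost) and 1, PTF1A, was higher (0.52, adjusted p = 0.0176), against 60.4% of all loci. Of the 26 regions 2 were then lower (against 2.26% of all regions) and 1 was higher (against 30.2%) in that comparison, and of the 7 lower by library size only NEUROD1_r1 was still called. Among the 11 regions whose covered length differed by less than 1.5 times between E18 and E28, 7 were lower at E28 by the first test, against 4.81% of all regions of that kind. The part of peak calling in these falls was not tested further.

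**Figure D3:**
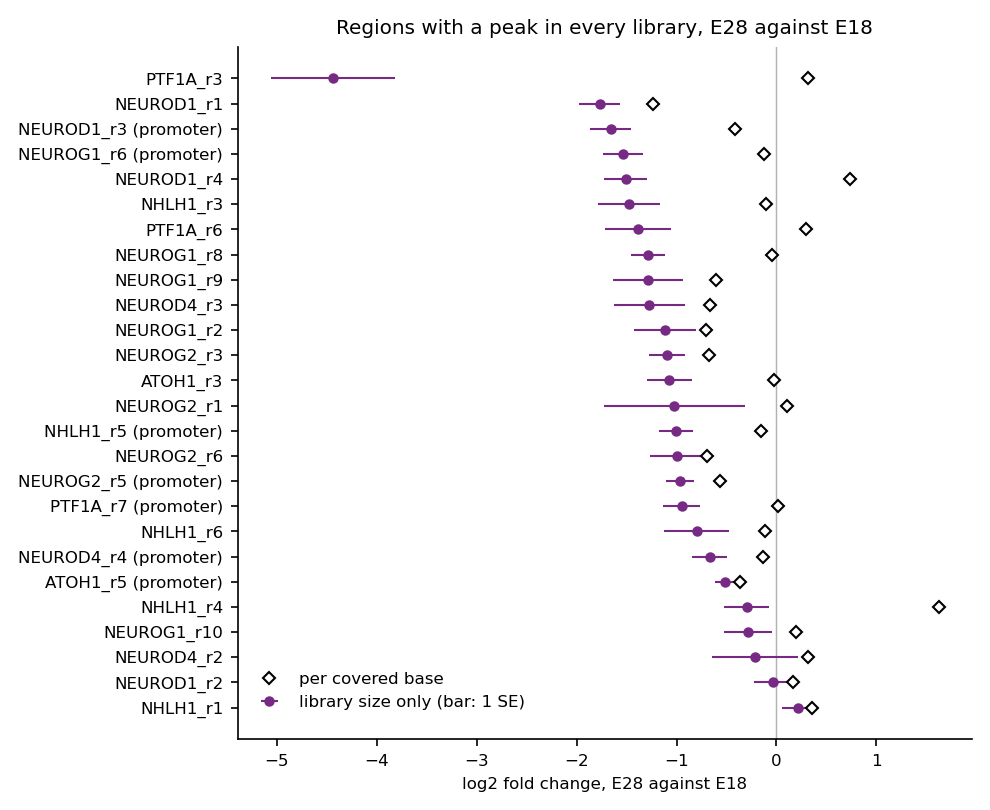
log2 fold change from E18 to E28 of the 26 regions with a peak in all 6 libraries, scaled by library size (filled, with 1 SE) and per covered base (open diamonds). By library size 25 of 26 points lie below 0. Per covered base the points range from -1.24 (NEUROD1_r1) to 1.62 (NHLH1_r4), with a median of -0.11 against 0.43 for all regions.

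Single cells were then asked whether the loci opened in the same cells. Each cell was thinned to 4000 counts and shallower cells were left out, 468 in E18 ZZ and 1685 in E28 DZ at the extremes. A locus was called open when it held a count. Cells with 3 or more of the 7 loci open made up 10.9% of cells in E18 ZZ (95% Wilson interval 10.3 to 11.5), 13.3% in E18 DZ (12.6 to 14.0), 11.5% in E21 ZZ (10.8 to 12.2), 7.40% in E21 DZ (6.85 to 7.99), 2.13% in E28 ZZ (1.83 to 2.47) and 2.09% in E28 DZ (1.79 to 2.43). The intervals cover counting error alone. The E28 shares lay far under the others, and E21 DZ lay below the other libraries of its tissue. Each locus taken alone was also open in fewer cells at E28, NEUROG2 in 26.7% in E18 ZZ and 15.1% in E28 ZZ. How far the single loci account for the shares with 3 or more was not tested. A locus could be open only inside the called peaks of its library. Their length at the 7 loci was 76177 bp in E18 ZZ and 72169 bp in E18 DZ, against 33876 bp in E28 ZZ and 35976 bp in E28 DZ. The shares of cells were not scaled by this length, and the part of peak calling in their falls was not tested.

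A given locus was more often open in cells where 2 or more of the other 6 were open. These cells numbered between 539 and 3145 per library. For NEUROG1 the share open was 18.3% ± 6.94 (SD, n = 6 libraries) in such cells and 13.3% ± 4.49 in the rest, and it was higher in 6 of 6 libraries. NEUROD1 was open in 16.6% ± 5.33 against 12.6% ± 4.27, NHLH1 in 18.6% ± 3.55 against 13.8% ± 1.86, and NEUROD4 in 12.2% ± 5.35 against 7.85% ± 2.498. PTF1A was open in 11.3% ± 5.42 against 8.46% ± 3.82, and ATOH1, with the smallest difference, in 14.8% ± 3.63 against 12.4% ± 3.30. The SDs, here and below, also hold the spread between stages, whereas the test used differences within libraries. Over these 6 loci the mean of those differences ran from 2.36 percentage points (SD 1.13) at ATOH1 to 5.07 (SD 2.93) at NEUROG1. Each of these 6 loci was higher in all 6 libraries, with p = 0.03125 by an exact two-sided sign-flip permutation test over the 6 libraries, the smallest value that 64 sign patterns allow, and an adjusted p = 0.0365 over the 7 loci (exact test). Over 23602 loci away from the members, between 9.69% and 11.8% were likewise higher in all 6 libraries, the share depending on which locus was left out of the choice of cells. Cells with 3 or more loci open were deeper than the rest before thinning, and at about 4000 counts they held more distinct peaks by 0.602% to 6.85%, and the part of this in the shared opening was not tested.

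NEUROG2 was open in 27.9% ± 8.61 of such cells against 20.8% ± 5.49 and was higher in 5 of 6 libraries (exact permutation p = 0.0625, adjusted p = 0.0625). In E28 ZZ its shares were 15.0% of 662 such cells (95% Wilson interval 12.4 to 17.9) and 15.1% of the rest (14.3 to 15.9), whereas in E28 DZ they were 20.6% of 539 (17.4 to 24.2) and 14.9%. Differences at E28 ZZ were also small for PTF1A (4.46% against 4.34%), NEUROD4 (5.86% against 5.60%) and NHLH1 (13.0% against 12.6%). At E21 DZ, by contrast, NEUROD4 was open in 17.9% against 9.10% of cells.

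**Figure D4:**
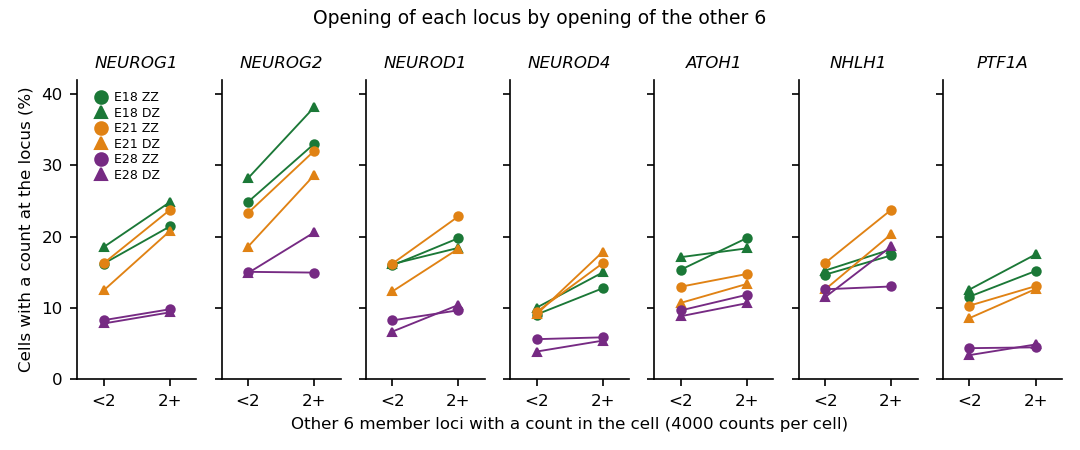
Share of cells with a count at each locus among cells with fewer than 2 and with 2 or more of the other 6 loci open, after thinning to 4000 counts, with 1 line per library. Lines rise in each library for 6 loci, and for NEUROG2 in 5 of 6, and the E28 lines are the lowest for each locus but NHLH1.

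The same grouping was applied to regions, with the locus in question never used to choose the cells. Counts were summed per library and class of cells and tested with library as a block. Of the 26 regions, 19 were higher in cells chosen by the other 6 loci and 0 were lower. By locus the counts were 4 of 5 for NEUROG1 (against 7.54% of all regions called higher in the same fit), 3 of 4 for NEUROG2 (6.96%), 3 of 4 for NEUROD1 (7.83%), 2 of 3 for NEUROD4 (7.69%), 1 of 2 for ATOH1 (8.56%), 4 of 5 for NHLH1 (7.79%) and 2 of 3 for PTF1A (7.96%). Without E21 ZZ or without E21 DZ the total was 14.

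The region with the largest fold change was NEUROD4_r2 (chr5:20037937-20038826), whose window with a CAGATG is printed above. In chosen and other cells it held 2.31 and 0.932 CPM in E18 ZZ, 3.58 and 1.66 in E18 DZ, 5.94 and 2.74 in E21 ZZ, 7.66 and 1.95 in E21 DZ, 2.91 and 1.82 in E28 ZZ and 1.79 and 1.17 in E28 DZ. The chosen cells were higher in all 6 libraries (log2 fold change 1.22, SE 0.16, adjusted p = 4.52e-05). The NEUROD4 promoter did not pass, with 0.10 (SE 0.08, adjusted p = 0.405) and higher values in 4 of 6 libraries.

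The other 6 promoters all passed as higher in the chosen cells. That of NEUROG2 was higher in 5 of 6 libraries, with 22.9 CPM in chosen and 24.0 in other cells of E28 ZZ. The log2 fold change was 0.71 (SE 0.09) at NHLH1, 0.70 (SE 0.08) at NEUROD1, 0.54 (SE 0.10) at NEUROG1, 0.50 (SE 0.07) at NEUROG2, 0.37 (SE 0.07) at PTF1A and 0.225 (SE 0.04) at ATOH1. At NEUROD1, CPM in chosen and other cells was 24.0 and 16.1 in E18 ZZ, 22.2 and 17.1 in E18 DZ, 27.3 and 15.4 in E21 ZZ, 21.0 and 11.8 in E21 DZ, 8.38 and 5.69 in E28 ZZ and 11.11 and 5.52 in E28 DZ. The upstream regions NEUROG1_r8 (0.65, SE 0.10) and NEUROG2_r3 (0.48, SE 0.05) rose with them, the former in 5 of 6 libraries (10.6 and 10.9 CPM in E28 DZ). PTF1A_r3 rose by 0.61 (SE 0.11), with 12.2 and 7.70 CPM in E21 ZZ, 0.179 and 0.162 in E28 ZZ and 0.654 and 0.844 in E28 DZ, where the direction was opposite.

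Accessibility of other genes was read in the same way in cells with 3 or more of the 7 loci open, leaving out windows within 100 kb of a member. A window was the gene body plus 2 kb upstream. Of 22861 windows, 7.22% were higher and 4.66% lower in these cells, and the median log2 fold change of all windows was -0.01. Of the neuronal and neural progenitor markers, 17 of 27 tested were higher and 0 lower. Windows of 8 of 13 neuronal genes rose, with a median over the list of 0.37, among them TAGLN3 (0.66, SE 0.06), STMN2 (0.60, SE 0.09), INA (0.60, SE 0.08) and the RNA-binding protein gene ELAVL3 (0.57, SE 0.08). MAPT, SNAP25, NEFL, NEFM and GAP43 ranged from -0.09 to 0.15 and did not pass. The calls on windows rested on the pairing of the classes within a library. With no library block, each of the 72 windows followed (62 of the lists and the 10 with the highest fold changes) lost its call. Without E21 ZZ 22 of the 72 lost it and without E21 DZ 20, among them ID1, ID3, NOTCH2, MFNG, ST18, LHX5, GBX1, ETS1, PAX1 and SOX5 in both cases, BHLHE23 in the former and FOXD3 in the latter.

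Of the neural progenitor genes 9 of 14 rose, with a median of 0.35. DBX1, a factor of the intermediate spinal cord, rose by 0.80 (SE 0.10), SOX3 by 0.62 (SE 0.10), SOX1 by 0.59 (SE 0.09) and PAX6 by 0.58 (SE 0.10). The PAX6 windows held a mean of 144 CPM in the chosen cells and 98.2 in the others, and were higher in 6 of 6 libraries. When library was not entered as a block, 0 of the 27 markers passed. Without both E28 libraries, which had 168 and 162 chosen cells, 19 passed.

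In the Notch pathway 8 of 14 windows rose and 1 fell, with a median of 0.21. The ligand gene DLL1 rose by 0.74 (SE 0.09, adjusted p = 0.000145), from a mean of 67.2 to 111 CPM, and was higher in 6 of 6 libraries. MFNG (0.47, SE 0.14) and LFNG (0.32, SE 0.05), which modify Notch, and the repressor gene HES5 (0.40, SE 0.06) also rose, and NOTCH2 fell by 0.20 (SE 0.06). Among the partners and inhibitors of the proneural factors 0 of 7 rose and 2 fell, namely ID1 (-0.17, SE 0.05) and ID3 (-0.18, SE 0.05).

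Early targets of proneural factors rose in 8 of 16 cases (median 0.16), led by INSM1 (0.86, SE 0.13), DLL1, MYT1 (0.53, SE 0.08) and ST18 (0.50, SE 0.12). Of 13 further proneural factors 6 rose (median 0.23), with the largest values for NEUROD6 (1.66, SE 0.26), NEUROG3 (0.71, SE 0.15), BHLHE23 (0.50, SE 0.12) and OLIG3 (0.37, SE 0.08). NEUROD6 had little signal, at a mean of 1.95 CPM against 0.64, and was higher in 4 of 6 libraries. Genes listed as downstream of PTF1A rose in 4 of 6 cases with values of 0.57 for LHX5, 0.43 for PAX2, 0.38 for GAD1 and 0.28 for GBX1. Those downstream of ATOH1 passed in 0 of 5 cases by edgeR, also at an unadjusted p under 0.05 (0 of 5), with values from -0.02 to 0.20, and DESeq2 was not run on cells.

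Markers of other cell types were counted in the same way. Fibroblast and mesenchyme windows were lower in 6 of 9 cases (median -0.35), with LUM at -0.72 (SE 0.11), COL3A1 at -0.60 (SE 0.09), DCN at -0.58 (SE 0.12) and PDGFRA at -0.35 (SE 0.05). Of 9 sclerotome and cartilage windows 2 were lower (PAX9 and PAX1) and 1 was higher (SOX5). Of 13 myogenic windows 2 were higher, PAX3 (0.47, SE 0.06) and PAX7 (0.44, SE 0.07), which are also genes of the dorsal neural tube. In the neural crest list FOXD3 rose and ETS1 fell, of 6 tested. In the endothelial list TIE1 rose (0.55, SE 0.09) and ERG fell, of 8. KRT18 was the 1 epithelial window of 8 that fell, and 0 of 4 blood windows passed by edgeR, with 2 of 4 at an unadjusted p under 0.05.

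**Figure D5:**
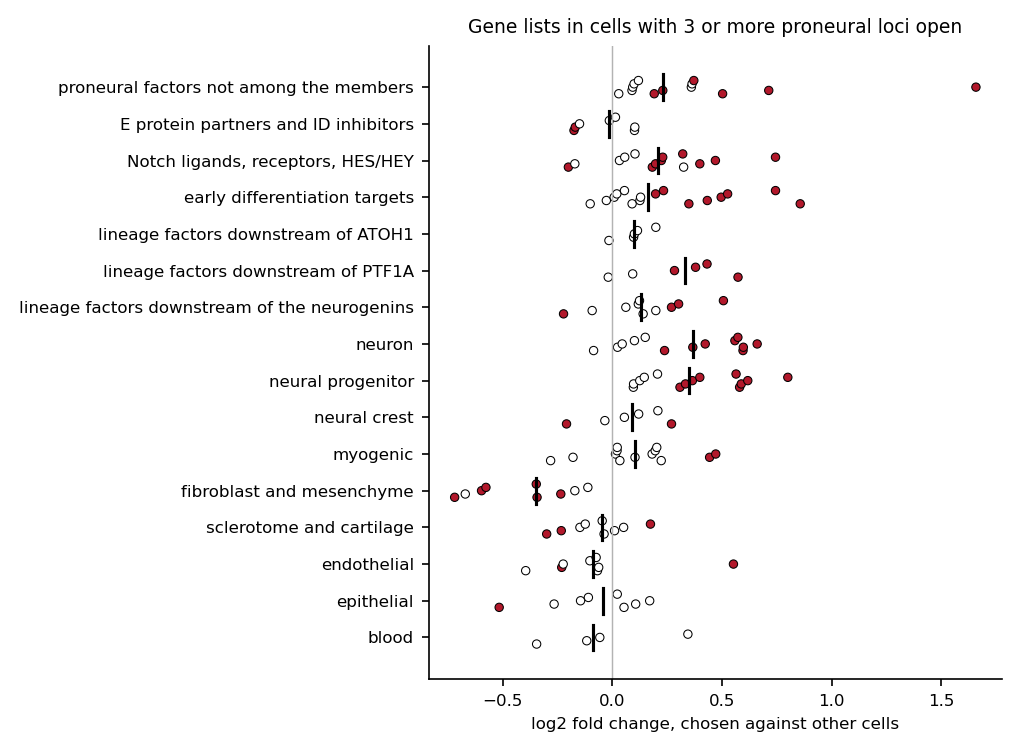
log2 fold change between cells with 3 or more proneural loci open and other cells, for the gene windows of each list (points, filled red where the adjusted p was under 0.05) with the list median (bar). Medians are highest for neuronal (0.37) and neural progenitor (0.35) genes and lowest for fibroblast and mesenchyme genes (-0.35).

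Among windows with at least 5 CPM in the chosen cells, the 10 with the highest fold changes were not of the lists. They had log2 fold changes of 1.49 to 1.70 and means of 5.03 to 14.0 CPM, and included SLC7A13, DGAT2L6, HK3 and CD40LG beside 6 unnamed loci. All 10 were under 5 CPM in the other cells, at 1.83 to 4.89, so that they passed this limit through the class in which they were high, and their fold changes are a description. They were higher in 4 or 5 of the 6 libraries. Chosen cells were deeper than the others before thinning in 6 of 6 libraries, with medians of 11552 against 11130 counts in E18 ZZ and 13361 against 10526 in E28 DZ. They also held more distinct peaks at an equal number of counts. After thinning to about 4000 counts the median was 3156 against 3137 peaks in E18 ZZ and 3135 against 2934 in E28 ZZ, an excess of 0.602% to 6.85% over the 6 libraries. The part of depth and of this excess in the differences between the classes was not tested.

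The loci whose levels over the 6 libraries were most like the sum of the 7 were sought among 24722 other loci, by the Euclidean distance of centred log2 CPM. SLITRK1, a neuronal transmembrane protein gene, was closest (distance 0.0913), followed by MIR219B (0.118), LAMP5 (0.122), LOC110261190 (0.132) and NFASC (0.133), the gene of the axonal adhesion protein neurofascin. SLITRK1 had 30.0 and 33.5 CPM at E18, 30.5 and 24.8 at E21, then 15.7 and 14.0 at E28. The likeness rests on 6 libraries and is a description of levels.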

How the data were processed

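Single-cell ATAC-seq was performed by the authors on the 10x Chromium platform, and reads were processed with Cell Ranger ATAC 1.2.0 against Sscrofa11.1 (Ensembl annotation). Per the labels, Seurat 3.1.1 and Signac 0.2.2 were used downstream. The deposited matrices hold raw counts of cut sites per peak and barcode, without normalization, with peaks called per library. Other deposited columns (peak starts and ends, barcodes) hold positions and names. Peaks overlapping by at least 1 bp were merged, and counts of barcodes with 2000 to 30000 counts were summed. Mitochondrial reads, start-site enrichment, nucleosome signal and reads in peaks, on which the study filtered cells, were not used, and no doublet caller was run. RefSeq gene models of the same assembly were used.

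Regions with a peak in all 6 libraries and all loci passing filterByExpr were tested with edgeR 4.0.16 (R 4.3.3, TMM, quasi-likelihood, terms for stage and breed, adjusted p under 0.05), and classes of cells with library as a block. Standard errors were derived from the fold change and F. DESeq2 1.42.0 was an alternative. The scripts were tested on simulated data with known changes. Named regions are every promoter and, per stage comparison, the 5 regions with the smallest adjusted p past the threshold, or the 2 smallest p where none passed. In cells they are the 10 highest windows and up to 4 per list, by size. NHLH1_r1, NHLH1_r4, NEUROD1_r2 and some windows were named after their values were seen. The members and lists were chosen with earlier results of these data known. Depth and counting errors limit precision as given with each value, and reads shared between overlapping genes cannot be assigned to 1 of them. The list of factors downstream of the neurogenins is not reported here.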

Additional observations from a re-analysis of the deposited data

Results flagged for a closer look

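The breed difference had opposite directions at E18 and E21 at all 7 loci, with 1 library for each stage and breed, so that the difference was not tested. Opposite directions were seen at 45.8% of all loci, and DZ above ZZ at E18 but below it at E21 at 24.7%. The 7 values rest on the same 4 libraries. The log2 ratio of DZ over ZZ at E18 minus that at E21 was 0.65 for NEUROG2, 0.552 for NEUROG1, 0.429 for NHLH1, 0.404 for NEUROD1, 0.372 for PTF1A, 0.311 for NEUROD4 and 0.257 for ATOH1. At E18 the DZ library was higher at each locus, with ratios from 0.01 for NEUROD1 to 0.30 for NEUROD4, and at E21 it was lower, with ratios from -0.39 for NEUROD1 to -0.01 for NEUROD4. E21 DZ also had a smaller share of cells with 3 or more loci open, 7.40% against 11.5% in E21 ZZ.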

How the results depend on the processing

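Size factors by RLE, no low-count filter, no second term, barcodes with 4000 to 60000 counts and the number of barcodes open kept each count of calls within 1.5 times of the value reported. With covered length as an offset, the counts of regions called became 10 (E28 against E18), 3 (E28 against E21) and 2 (E21 against E18), and those of loci 3, 1 and 0, in both directions together. Turned signs are listed for features called by library size. Signs then turned from E18 to E28 for NEUROD1_r4 (0.74), PTF1A_r3 (0.32), PTF1A_r6 (0.30), PTF1A_r7 (0.016) and the loci of NEUROG1 (0.0073), NEUROD4 (0.028), ATOH1 (0.14) and PTF1A (0.44). From E21 to E28 they turned for NEUROD1_r4 (0.52), PTF1A_r3 (0.41), NEUROG1_r6 (0.082), NEUROD1_r3 (0.036) and the loci of NEUROD1 (0.079) and PTF1A (0.52), and from E18 to E21 for the ATOH1 locus (0.12). Some features that were not called turned as well from E18 to E28, among them the NHLH1 locus (0.50) and NHLH1_r4 (1.62). The offset itself shifted the median of all regions by 0.45 and of all loci by 0.66 (E28 against E18). These shifts were 0.34 and 0.40 for E28 against E21, and 0.086 and 0.23 for E21 against E18. DESeq2 called 14 regions from E21 to E28, and 2 regions and 2 loci from E18 to E21. It called 7 loci from E18 to E28 and 7 from E21 to E28. Regions with a peak of any library gave 0 calls from E21 to E28 and 18 from E18 to E28. In the latter comparison NEUROG1_r2, NEUROG1_r9, NEUROG2_r6, NEUROD4_r3, NEUROD4_r4, NHLH1_r3 and PTF1A_r6 lost their calls. The set with a peak of any library also holds regions without a peak in some libraries, where no count could exist. Its count of calls is therefore not like that of the main test. Peaks open in at least 1% of barcodes gave 11 calls from E21 to E28, 17 from E18 to E28 and 1 from E18 to E21. The ATOH1 locus lost its E21 call with flanks of 5 and 50 kb (0 loci called). For these counts the cause was not tested.

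Leaving out 1 library left a stage with a lone library, which was assumed to vary like the others. The counts of regions then ranged from 6 to 18 (E28 against E18), 0 to 13 (E28 against E21) and 0 to 2 (E21 against E18), and those of loci from 0 to 5 (E28 against E21) and 0 to 1 (E21 against E18). In cells the neural markers called ranged from 16 to 19 and the regions from 14 to 20. Without both E28 libraries, an alternative chosen after seeing the data, 19 neural markers passed. With no replicate block, meaning that library was not paired between the classes of cells, 0 of 27 passed, and each of the 72 windows followed lost its call. Leaving out 1 library cost between 3 (E28 ZZ) and 22 (E21 ZZ) of these 72 their call, and choosing cells by 2 or more open promoter regions cost 18. No other paired analysis was possible because each stage and breed had 1 library. Thinning to 8000 counts left 6 of 7 loci past the threshold for shared opening, with NEUROD4 rather than NEUROG2 as the exception (p = 0.0625, exact permutation test). Single regions, loci and windows called by the main tests gave 1275 alternative values that kept direction and side of the threshold. A further 293 kept the direction alone and 15 turned. Depth limits regions of a few CPM most, such as NEUROD4_r2.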
